A study of Mus musculus with 12 samples.

Results

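Genes that mark the projection neurons of the striatum, or that carry dopamine signals inside them, were followed in RNA from mouse cerebral cortex. The set is a list of 32 gene symbols, and 31 of them were matched to a row of the table of 54232 genes. Gpr52, a receptor coupled to the striatal G protein Golf, is not analysed here. The list was drawn up with earlier results of these data known, so its counts and medians are a description of these genes. All 31 had enough reads to be tested, among 18016 tested genes. The 3 symbols that define the cells, Ppp1r1b, Drd1 and Adora2a, had reads in every library.

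The cortex came from 12 C57BL/6J mice aged 12 weeks. Of these, 6 were homozygous for the Y446C change in Tbl1xr1 (3 females, 3 males), and 6 were wild type (3 females, 3 males). The mice serve as a model of Pierpont syndrome, a rare developmental disorder. TBL1XR1 is a subunit of the NCoR/SMRT corepressor complex, which silences target genes through histone deacetylation. Libraries are named below by sex, genotype and the animal number of the labels, for example female wild-type 5.

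Most neurons of the striatum are GABAergic projection neurons, of which there are 2 classes. Neurons of the direct pathway express the D1 dopamine receptor with substance P and dynorphin, and those of the indirect pathway express the D2 receptor with an adenosine receptor and enkephalin. In both, receptors act through Golf, adenylyl cyclase 5 and cAMP, and cAMP-dependent protein kinase turns the protein DARPP-32 into an inhibitor of protein phosphatase 1. The striatum lies directly beneath the cortex, and some of these genes (here Ppp1r1b, Drd1, Penk, Tac1, Pde1b, Gng7, Gnal, Meis2 and Arpp21) are also transcribed by cortical cells.

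Cyclic AMP acts on transcription through the cAMP response element (CRE), and promoters of the members are shown for that reason, with the dopamine receptor promoters first because the D1 and D2 classes are set against each other in what follows. Sequences are from RefSeq on GRCm38.p6, 5′ to 3′ on the strand of the gene. Capitals mark a consensus CRE (TGACGTCA), a CRE variant (TGCGTCA) or a GC box (GGGCGG), each searched on both strands of the 250 bases before the start. The Drd1 stretch (chr13:54055706-54055908, minus strand, the 203 bases of its window upstream of the GENCODE start) holds none of them, the Drd2 stretch (chr9:49340153-49340402, plus strand) holds 2 GC boxes, and the Gpr6 stretch (chr10:41072291-41072540, minus strand) holds a consensus CRE that begins 78 bases before the start.
Drd1: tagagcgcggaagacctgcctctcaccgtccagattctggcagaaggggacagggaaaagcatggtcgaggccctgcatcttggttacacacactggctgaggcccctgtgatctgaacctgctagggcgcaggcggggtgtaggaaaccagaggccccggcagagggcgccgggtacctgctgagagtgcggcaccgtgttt
Drd2: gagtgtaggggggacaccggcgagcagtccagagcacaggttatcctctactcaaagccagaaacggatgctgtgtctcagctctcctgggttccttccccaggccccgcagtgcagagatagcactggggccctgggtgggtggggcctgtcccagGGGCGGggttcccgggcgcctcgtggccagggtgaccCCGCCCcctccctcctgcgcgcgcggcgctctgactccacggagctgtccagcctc
Gpr6: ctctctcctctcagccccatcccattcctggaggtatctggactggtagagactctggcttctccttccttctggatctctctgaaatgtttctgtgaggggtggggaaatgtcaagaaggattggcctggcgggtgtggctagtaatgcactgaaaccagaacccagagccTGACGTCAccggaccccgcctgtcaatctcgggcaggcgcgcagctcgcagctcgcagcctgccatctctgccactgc
Of the 20 members with a promoter in the RefSeq table, Gpr6 alone held the consensus CRE, which 1.55% of all 32851 promoters held. Members without an entry there, among them Ppp1r1b, Adora2a and Penk, were not searched. The variant was found in 3 members against 1.75% of all promoters, and is shown for these 3 with 10 bases on either side: Tac1 (chr6:7554852-7554878, plus strand), Arpp21 (chr9:112185969-112185995, minus strand, where it lies in the opposite orientation) and Isl1 (chr13:116309715-116309741, minus strand). The Arpp21 stretch lies before a RefSeq start inside the gene, which spans chr9:112065091-112235938 in GENCODE.
Tac1: tccctaaaatTGCGTCAtttcgaacac
Arpp21: aaggctgaggTGACGCAcctgcctcct
Isl1: ccccgcgcgcTGCGTCAgaccaatggc
A GC box was present in 13 of the 20 (in Drd1 within the bases not shown) and in 32.74% of all promoters. For each motif a member counts if any of its listed promoters held it, while the percentages are over single promoters. The counts and percentages are therefore unlike measures. The motifs did not overlap one another, and a match here is a match of letters only.

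The table holds counts per gene, and 11 libraries had 21238427 to 32669138 counts with 5.23% to 10.4% of them mitochondrial. Female mutant 3 stood apart, with 3748515 counts, 31.6% mitochondrial counts and a median Spearman correlation of 0.921 with the other libraries. A floor of 3 counts equals 0.0861 to 0.137 CPM (counts scaled by the library total) in the 11 libraries and 1.16 CPM in female mutant 3, so the fold changes of members and the medians of lists are also given without that library. Tbl1xr1 itself was at 105 ± 7.05 CPM (SD, n = 6) in wild types and 93.5 ± 2.69 CPM (SD, n = 6) in mutants, and since the mutation is a substitution, its level does not check the labels. Markers of cortical excitatory neurons (8 genes, among them Slc17a7 and Tbr1) summed to 1030 to 1320 CPM in wild types and 982 to 1310 CPM in mutants. Levels are CPM on TMM-scaled library totals, and differences are log2 fold changes, mutant against wild type, from edgeR's quasi-likelihood fit with sex as a covariate.

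The log2 fold change was below 0, lower in the mutants, for 30 of 31 members, as it was for 9440 of all 18016 genes. Its median was -0.63 over the members against -0.01 over all genes. As a plain mean, Six3 was nonetheless higher in the mutants (13.8 CPM against 12.5 CPM). No member passed the test: 0 of 31 were called at an adjusted p of 0.05, where 0.00555% of all genes (1 gene) were, and their adjusted p lay between 0.950 and 0.962. At an unadjusted p under 0.05, 15 members were lower and 0 higher, set against 2.45% of all genes lower at that threshold. Without female mutant 3 the median was -0.69, and 30 members were lower, as were 9068 of 18461 genes. In that fit 22 members were lower at an unadjusted p under 0.05 (4.26% of all genes). Of the members 0 were called (0.0108% of all genes, adjusted p 0.488 to 0.999 by edgeR). DESeq2 likewise called 0 members with all libraries (0.161% of genes, lowest adjusted p 0.358) and 0 without female mutant 3 (0.293% of genes, lowest adjusted p 0.279).

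The mutant and wild-type levels overlapped for every member. For 0 of 31 members did every mutant lie below every wild type, a pattern shown by 0.294% of all genes, and leaving out female mutant 3 gave 0 again. Inside the wild types the members spread widely. Their highest wild-type library exceeded the lowest by a median of 3.19 times (1.90 to 6.65). Over all tested genes of at least 1 CPM this median was 1.32 times. A single wild type, female wild-type 5, was the highest of all 12 libraries for 25 members, and 1 mutant, male mutant 10, was the lowest for 24. Without female mutant 3 these counts were 30 and 29 of 31.

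**Figure D1:**
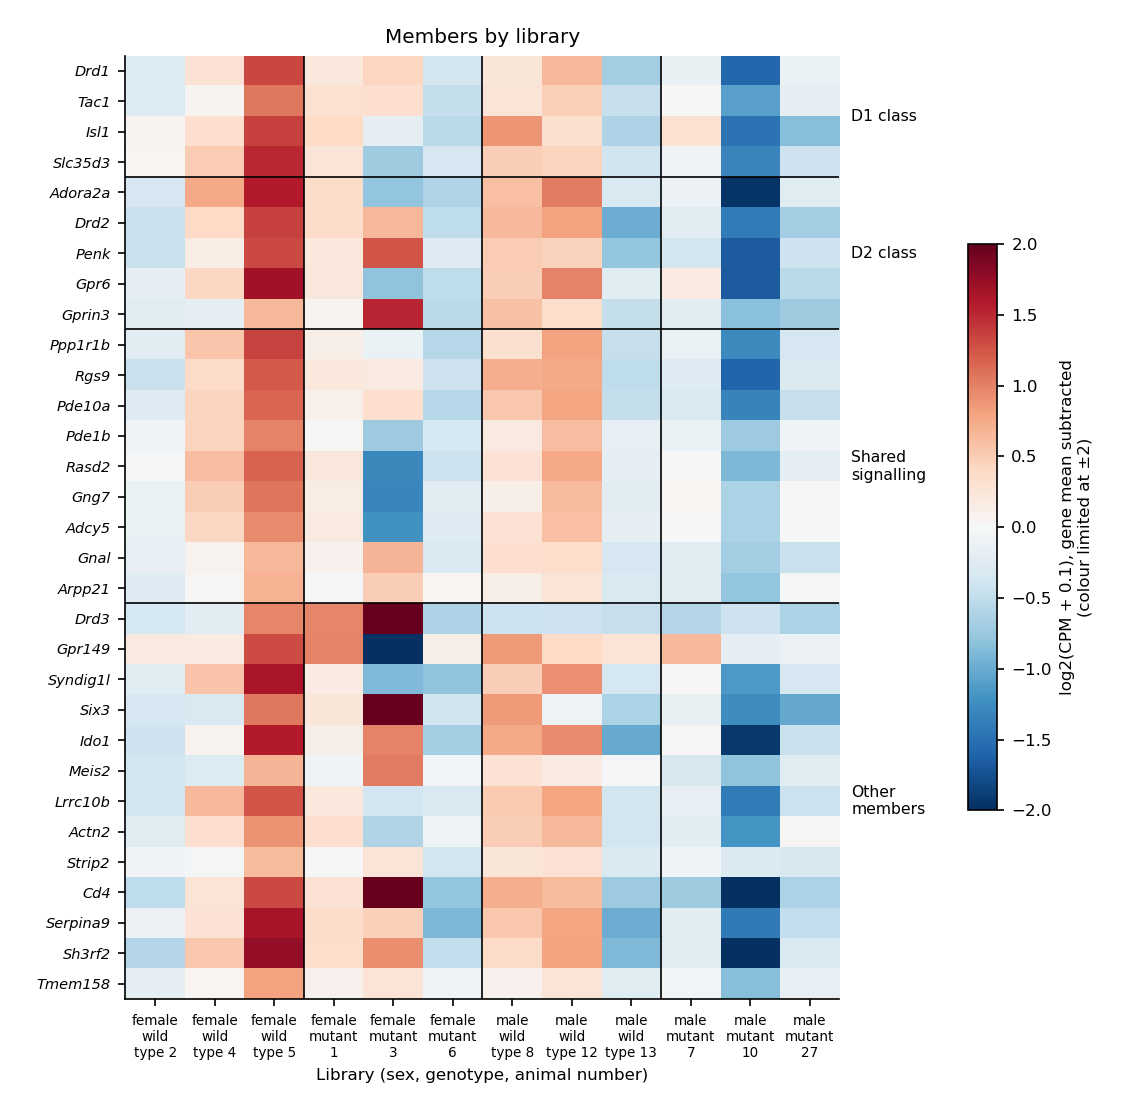
Level of the 31 members in each of the 12 libraries, shown on a log2 scale with the mean of each gene subtracted (colour scale, limited at 2 on either side), with genes in rows and libraries in columns by sex and genotype. Female wild-type 5 is the highest library for 25 members and male mutant 10 the lowest for 24, and female mutant 3 is the highest for 6 and the lowest for 5.

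Several libraries carried the count of members at an unadjusted p under 0.05. Leaving out female wild-type 5 took it from 15 to 7 (1.81% of all genes) and the median log2 fold change to -0.46. Leaving out male wild-type 12 took the count to 9 (1.80%), with a median of -0.55, and leaving out male mutant 10 took it to 9 (2.15%), with a median of -0.57. In each of these 3 fits 30 of 31 members were lower in the mutants. Across members, those with the wider spread among wild types had the more negative log2 fold change (Spearman rho -0.798 over 31 genes, without female mutant 3), a description in which both quantities share the wild-type libraries.

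Bulk RNA cannot tell apart fewer cells of a type from less RNA per cell, and this holds for every value given here. How much striatal tissue came with each cortex is not in the labels, and its part in these values was not tested. Ppp1r1b (ENSMUSG00000061718, chr11:98348404-98357796, GRCm38), which encodes DARPP-32, was at 113, 193 and 335 CPM in the wild-type females and at 164, 229 and 96.0 CPM in the wild-type males. It was at 142, 120 and 88.3 CPM in the mutant females (animals 1, 3 and 6) and at 120, 54.5 and 104 CPM in the mutant males (animals 7, 10 and 27). The groups overlapped, with 2 mutants, female 6 and male 10, under the lowest wild type, male 13. Its mean was 188 ± 87.0 CPM (SD, n = 6) in wild types and 105 ± 30.5 CPM (SD, n = 6) in mutants, and its log2 fold change was -0.84 (SE 0.283), -0.87 in females and -0.81 in males, and -0.85 overall without female mutant 3. The unadjusted p was 0.0109 and the adjusted p 0.950 by edgeR.

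Among the D1-class members, Drd1 (ENSMUSG00000021478, chr13:54051183-54055705), the receptor that couples to Golf and raises cAMP, was at 23.6 (lowest), 46.0 (median) and 97.4 (highest) CPM in wild types. In mutants it was at 12.9, 34.8 and 51.5 CPM, so that a single mutant, male 10, fell outside the wild-type range. Its log2 fold change was -0.59 (SE 0.326, unadjusted p 0.0962 by edgeR), and -0.66 without female mutant 3. Tac1, the precursor of substance P, had 16.3, 25 and 46.8 CPM in wild types and 10.5, 20.9 and 28.3 CPM in mutants. Its log2 fold change of -0.42 (SE 0.269, or -0.48 without female mutant 3) was the closest to 0 of the 4 D1-class genes.

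The other D1-class genes were less abundant. Isl1, a LIM homeodomain factor that specifies the direct pathway in development, had 1.69, 3.34 and 7 CPM in wild types against 0.889, 2.06 and 3.54 CPM in mutants (log2 fold change -0.81, SE 0.369, or -0.80 without female mutant 3). Slc35d3, a transporter-like protein required for D1 receptors to reach the cell surface, had 3.86, 7.13 and 14.8 CPM against 1.98, 3.92 and 6.17 CPM (log2 fold change -0.86, SE 0.296, or -0.82). Both had overlapping groups, and 3 mutants lay under the lowest wild type for Slc35d3 but 2 for Isl1.

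In the D2 class, Drd2 (chr9:49340627-49408177), the receptor that lowers cAMP through Gi, was at 12.7, 36.7 and 65.4 CPM in wild types and 9.58, 19.7 and 40.3 CPM in mutants. Its log2 fold change was -0.74 (SE 0.373, unadjusted p 0.0690 by edgeR), -0.42 in females and -1.06 in males, and without female mutant 3 it was -0.86 overall. Female mutant 3 gave the highest of the 6 mutant values of Drd2. Adora2a (chr10:75316877-75334784), the adenosine receptor that opposes D2 signalling, had 17, 34.5 and 64.6 CPM in wild types and 5.45, 16.2 and 27.6 CPM in mutants. Its mean was 35.4 ± 17.9 CPM (SD, n = 6) against 16.3 ± 7.5 CPM (SD, n = 6), a 2.14-fold difference (log2 fold change -1.10, SE 0.380, unadjusted p 0.0130 by edgeR). This was the largest of the members with all libraries, but without female mutant 3 Adora2a was at -1.04, behind Cd4 (-1.07) and Ido1 (-1.06). For Adora2a 3 of 6 mutants lay below every wild type.

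Gpr6, a constitutively active receptor of indirect-pathway neurons and the only one of the 20 members searched with the consensus CRE, had 3.46, 5.69 and 13.5 CPM in wild types and 1.23, 2.85 and 4.84 CPM in mutants (log2 fold change -1.05, SE 0.380, or -1.02 without female mutant 3). Of its mutants 4 lay below the lowest wild type. Penk, which encodes proenkephalin, was the most abundant member per length. It had 98.9, 210 and 419 CPM in wild types and 53.2, 135 and 403 CPM in mutants, where the 403 CPM came from female mutant 3, and its log2 fold change was -0.45 with that library and -0.73 without it. Gprin3, a binding partner of activated G proteins, had 30.8, 46.5 and 68.3 CPM in wild types and 24.1, 33.3 and 124 CPM in mutants, the 124 CPM again from female mutant 3, with a log2 fold change of -0.20 (-0.60 without it).

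Set side by side, the D1 class (4 of 4 lower) had a median log2 fold change of -0.70 and the D2 class (5 of 5 lower) one of -0.74, or -0.73 and -0.86 without female mutant 3. The summed levels of the classes were both highest in female wild-type 5 (166 CPM for D1, 631 CPM for D2) and both lowest in male mutant 10 (26.3 and 93.6 CPM). Ratios inside a library compare the classes without the shared rise and fall. The log2 ratio of Drd1 to Drd2 was 0.55 ± 0.242 (SD, n = 6) in wild types and 0.62 ± 0.295 (SD, n = 6) in mutants, a difference of 0.07 (two-sided exact permutation p 0.690 over 400 labellings within sex, 0.825 adjusted over 3 ratios), and 0.11 without female mutant 3. For Tac1 to Penk it was -2.91 ± 0.235 and -2.86 ± 0.539, a difference of 0.05 (exact permutation p 0.825, 0.825 adjusted), and 0.19 without female mutant 3. These p-values do not show that the 2 classes changed alike.

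**Figure D2:**
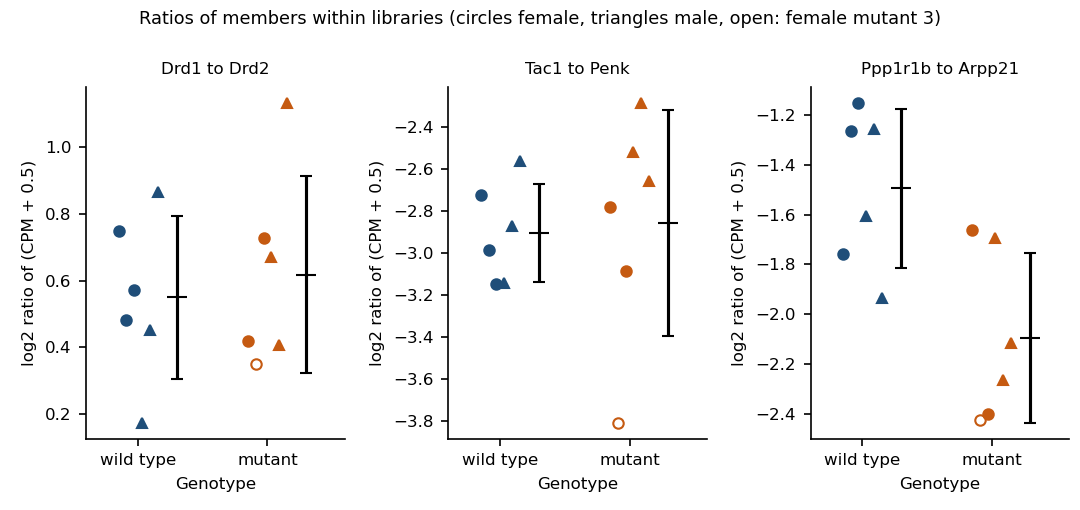
Log2 ratio of 3 gene pairs (Drd1 to Drd2, Tac1 to Penk, Ppp1r1b to Arpp21) in each library, by genotype and sex, with the group mean and bars of 1 SD beside the points and female mutant 3 as an open circle. For the first 2 pairs wild types and mutants overlap around means that differ by 0.07 and 0.05, and for Ppp1r1b to Arpp21 the mutant mean is lower by 0.60 with overlapping points.

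The 9 members of the signalling chain shared by both classes were all lower, with a median of -0.68 (-0.59 without female mutant 3). Pde1b, a calcium- and calmodulin-dependent phosphodiesterase, had the smallest unadjusted p of all members with all libraries (0.00561 by edgeR, adjusted 0.950). Without female mutant 3 the smallest was that of Pde10a (0.00674, against 0.00814 for Pde1b, both adjusted 0.488 by edgeR). It was at 157, 219 and 349 CPM in wild types and 106, 148 and 178 CPM in mutants (log2 fold change -0.68, SE 0.204, or -0.59 without female mutant 3). Of the mutants 3 lay below the lowest wild type and 3 inside the range. Pde10a, the main phosphodiesterase that degrades cAMP and cGMP in these neurons, was at 217, 424 and 674 CPM against 119, 231 and 380 CPM (log2 fold change -0.79, SE 0.287, and -0.90 without female mutant 3). Adcy5, the main striatal adenylyl cyclase, was at 181, 264 and 401 CPM against 89.8, 190 and 236 CPM (-0.61, SE 0.243, or -0.47 without it).

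The G protein subunits of the chain differed in how female mutant 3 stood. Gng7, the gamma subunit of Golf, was at 124, 178 and 299 CPM in wild types and 57.7, 133 and 159 CPM in mutants, the lowest from female mutant 3 (log2 fold change -0.63, or -0.47 without it). Gnal, the alpha subunit of Golf, was at 227, 330 and 454 CPM in wild types and 178, 239 and 460 CPM in mutants, the highest from female mutant 3 (-0.31, or -0.47 without it). Without that library the 2 subunits thus had the same log2 fold change to 2 decimals. Rgs9, which speeds the shut-off of G protein signals, had 40.4, 85.5 and 135 CPM against 19.1, 47.8 and 66.8 CPM (-0.79, SE 0.324, or -0.85 without it). Rasd2, the small GTPase Rhes, had 63.8, 100 and 166 CPM against 29.8, 59.4 and 85.9 CPM (-0.83, SE 0.273, or -0.69 without female mutant 3, the lowest). Arpp21, a cAMP-regulated phosphoprotein with high cortical expression, had 369, 482 and 744 CPM against 264, 451 and 647 CPM and a log2 fold change of -0.19 (SE 0.188, or -0.29 without it).

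Among the remaining members, the striatum-enriched membrane protein gene Syndig1l had 15.2, 28.1 and 60.3 CPM in wild types and 8.69, 13.2 and 21.8 CPM in mutants (log2 fold change -1.05, SE 0.336, unadjusted p 0.00856 by edgeR, or -0.98 without female mutant 3). Lrrc10b was at 15.1, 29.5 and 46.9 CPM against 7.4, 15.5 and 22.8 CPM (-0.87, SE 0.292, or -0.85). For each, 3 mutants lay under the lowest wild type and the others inside its range. Log2 fold changes were -0.94 for Ido1, a tryptophan-degrading enzyme, -0.93 for the serpin gene Serpina9, -0.80 for Sh3rf2 and -0.57 for Actn2, the alpha-actinin of dendritic spines. They were -0.29 for both Strip2 and Tmem158. Without female mutant 3 these 6 were at -1.06, -0.99, -0.94, -0.51, -0.36 and -0.33 in the same order. Gpr149, an orphan receptor, was at -0.34 (-0.23 without it) and had 0 counts in female mutant 3, which allows up to 1.16 CPM there.

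Drd3, a D2-like receptor of the ventral striatum, was the exception to the direction and the least abundant member. It was at 0.355, 0.384 and 1.13 CPM in wild types and 0.307, 0.346 and 2.71 CPM in mutants, the last from 7 counts in female mutant 3. Its log2 fold change was 0.23 (SE 0.447) and 0.01 without that library.

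Female mutant 3 moved members in both directions relative to the other mutant females, with 17 members above both and 11 below both. Cd4, the co-receptor of helper T cells, was at 28.3 CPM there (73 counts) against 7.94 and 3.69 CPM in female mutants 1 and 6, and its log2 fold change was -0.62 with the library and -1.07 without. Six3, a homeodomain factor of indirect-pathway neurons, was at 43.0 CPM there against 12.5 and 8.03 CPM (-0.23 and -0.66), and Meis2, a homeodomain factor of projection neurons, at 278 CPM against 129 and 131 CPM (-0.15 and -0.39). T cell markers were low in all libraries: the 6 listed (Cd3e, Cd3d, Cd3g, Cd2, Lck, Cd8a) summed to 1.04 to 1.36 CPM in wild types and 0.91 to 1.81 CPM in the other 5 mutants, highest in male mutant 27. In female mutant 3 they summed to 0, which allows 1.16 CPM for each gene. Exon length had little relation to the departure of this library (Spearman rho 0.133 over 31 members and 0.114 over 18006 genes, as descriptions).

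**Figure D3:**
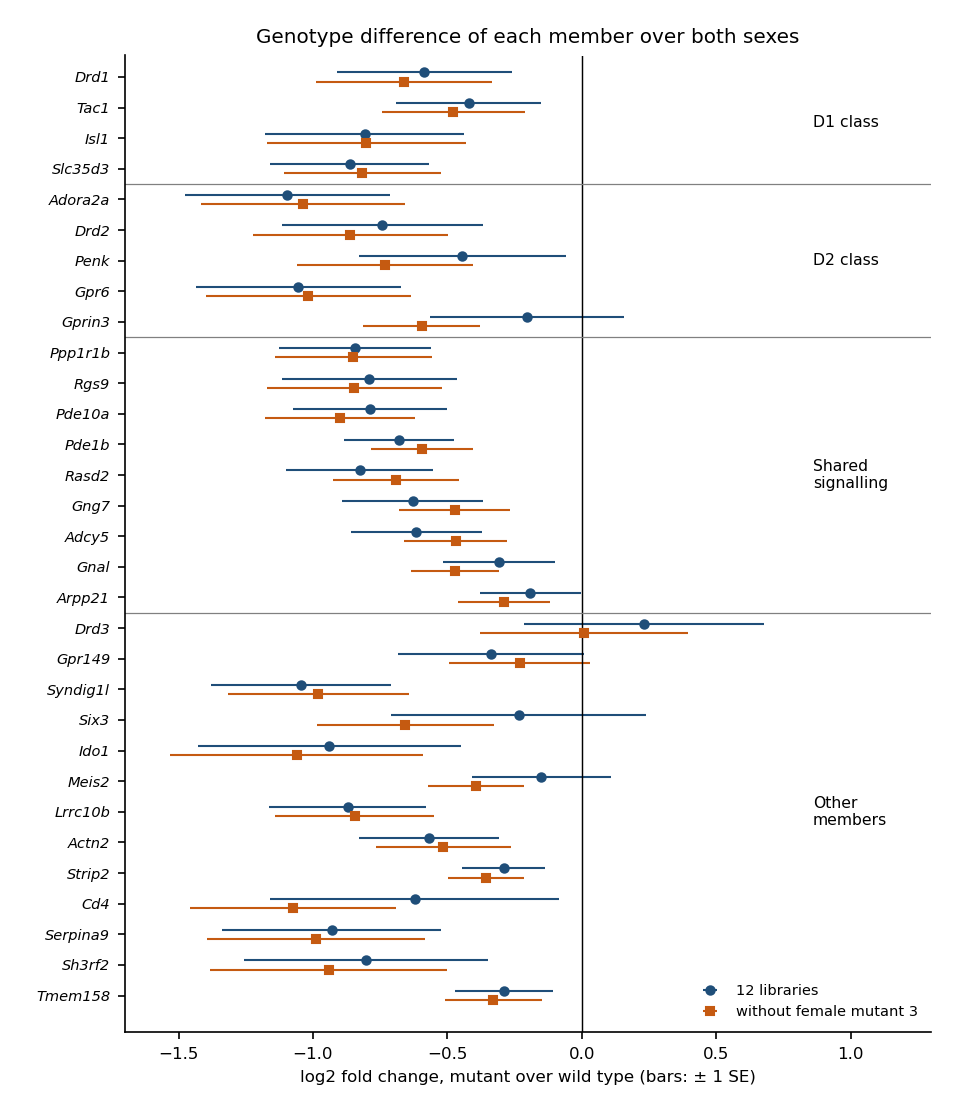
Log2 fold change of each of the 31 members, mutant against wild type over both sexes, with all 12 libraries and without female mutant 3, with bars of 1 SE. Of the 31 points 30 lie below 0 in both fits, and Cd4, Six3, Gprin3, Meis2 and Penk move down when female mutant 3 is left out.

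Members that cortical cells also express were compared with the others. The 9 also-cortical genes were all lower in the mutants (median log2 fold change -0.45, 3 at an unadjusted p under 0.05), and of the other 22 members 21 were lower (median -0.79, 12 at that threshold). Of all 18016 genes 9440 were lower, and 2.45% were lower at that threshold. Without female mutant 3 the medians were -0.48 and -0.83. In that fit 6 of the 9 and 16 of the 22 were lower at that threshold, against 4.26% of all genes. The difference between the sub-lists was not tested. Inside the also-cortical list, the log2 ratio of Ppp1r1b to Arpp21 was -1.495 ± 0.318 (SD, n = 6) in wild types and -2.09 ± 0.341 (SD, n = 6) in mutants, a difference of -0.60 (two-sided exact permutation p 0.0250, adjusted 0.0750). It did not pass at 0.05 after adjustment, and neither did it without female mutant 3 (-0.53, exact permutation p 0.0400, adjusted 0.120).

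Levels per exon length show how the members stood to each other in wild-type cortex. Penk had 133 CPM per kilobase (RPKM), Ppp1r1b 64.2, Gng7 49.7, Pde1b 42.6 and Adcy5 37.4 RPKM. The receptors were lower, with 14.1 RPKM for Drd2, 14 for Drd1, 11.6 for Adora2a, 3.75 for Gpr6 and 0.298 for Drd3. Neighbours such as Drd2 and Drd1 did not differ beyond their spread between libraries. Of the members 6 share exon bases with a gene on the opposite strand (Ppp1r1b, Penk, Arpp21, Gnal, Six3 and Syndig1l) and Serpina9 with one on the same strand. No source used here says whether counting used strand, and their reads may include some of the partner's.

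The members rose and fell together from animal to animal. Over 12 libraries, Ppp1r1b correlated with Adora2a (Pearson r 0.961, permutation p 1e-05, the smallest that 100000 permutations can give, Spearman rho 0.874), Drd1 (r 0.942, rho 0.930), Drd2 (r 0.911, rho 0.930) and Pde1b (r 0.907, rho 0.825). Adjusted over the 6 relations tested, the permutation p of these 4 r values lay between 6e-05 and 0.000165. Leaving out the libraries farthest from the median of Ppp1r1b, female wild-type 5 and male mutant 10, kept r at 0.908, 0.835, 0.817 and 0.801. With the group means removed r was 0.942, 0.968, 0.939 and 0.891, so the relation was present inside groups.

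The other 2 relations had lower r, and the difference in r was not tested. Arpp21 had r 0.797 (permutation p 0.00280, adjusted 0.00336, rho 0.706), but 0.408 without those 2 libraries. It was 0.900 without female mutant 3 and 0.847 with the group means removed, so its size depended on the libraries kept. Meis2 had r 0.572 (permutation p 0.0527, rho 0.510) and did not pass. For Meis2 r reached 0.814 without female mutant 3 and 0.115 without the 2 farthest libraries.

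**Figure D4:**
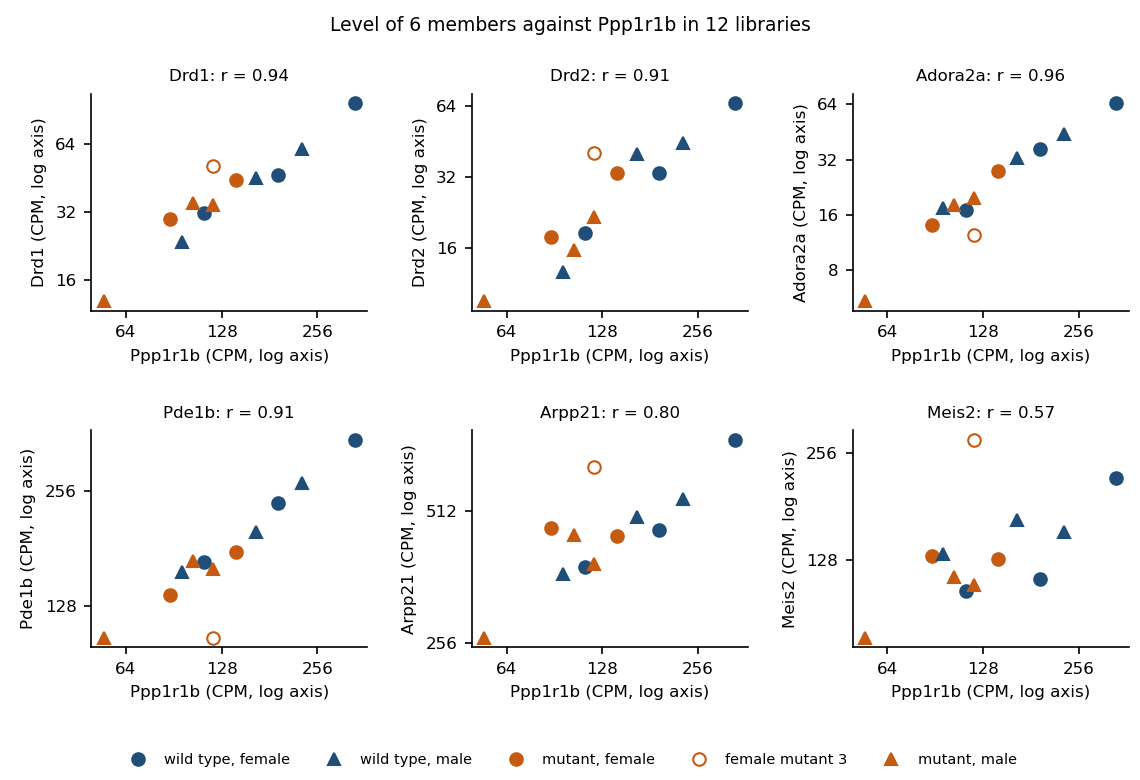
Level of Ppp1r1b (x axis, CPM on a log axis) against that of 6 other members (y axes, CPM on log axes), 1 point per library, coloured by genotype with sex by symbol and female mutant 3 open. The r of each panel is that of log2 CPM. Drd1, Drd2, Adora2a and Pde1b follow Ppp1r1b (r 0.942, 0.911, 0.961 and 0.907), with female wild-type 5 at the upper end and male mutant 10 at the lower end, and Meis2 follows least (r 0.572).

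By sex, 26 of 31 members were lower in mutant females (median -0.54) and 31 of 31 in mutant males (median -0.79), and 0 were called in either sex, as were 0% of all genes in each. Without female mutant 3 the female count was 30 and the medians were -0.62 and -0.80. In females 5 members were lower at an unadjusted p under 0.05 (Pde1b, Rasd2, Syndig1l, Gng7 and Adcy5), against 3.83% of all genes, but without female mutant 3 Pde1b alone was (4.47% of all genes). In males 3 were (Pde10a, Lrrc10b and Rgs9), against 1.75% of genes, and 7 without female mutant 3 (4.51% of genes), in a fit that pools the spread over the groups. The interaction of sex and genotype called 0 members and 0% of all genes, with adjusted p of at least 0.555. Gprin3 and Six3 had interaction values of -1.16 (SE 0.651) and -1.39 (SE 0.874), males minus females, and both took their high female value from female mutant 3.

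Other striatal genes followed the members in part. Of 16 further striatal genes, 14 had lower mutant means (median log2 fold change -0.29, or -0.31 without female mutant 3), and 0 were called. Scn4b, the sodium channel beta4 subunit of projection neurons, was at 105, 212 and 368 CPM in wild types and 80.9, 105 and 174 CPM in mutants (-0.86, SE 0.289, or -0.78 without female mutant 3). Pdyn, the dynorphin precursor of the direct pathway, was at -0.58 (SE 0.247, or -0.45), and Sp9, a factor of indirect-pathway neurons, at -0.49 (SE 0.221, or -0.47). The summed level of the 16 was again highest in female wild-type 5 and lowest in male mutant 10.

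Other genes of the dopamine and cAMP pathway had, as a list, a median close to 0. Of 20 tested, 13 were lower and 7 higher, with a median of -0.05 (-0.04 without female mutant 3) and 0 called. At an unadjusted p under 0.05 by edgeR, 0 were lower with all libraries. Without female mutant 3, 3 were lower (4.26% of all genes) and 1 higher. The smallest p values were those of the regulator of G protein signalling Rgs4 (-0.27, SE 0.126), adenylyl cyclase 1, Adcy1 (-0.26, SE 0.126), and the phosphodiesterase Pde7b (-0.41, SE 0.200), which without that library were at -0.31, -0.16 and -0.55. Pde7b was highest in female wild-type 5 (119 CPM) and lowest in male mutant 10 (42.5 CPM), the same libraries as for most members. The summed level of the list ranged from 6370 to 7140 CPM in wild types and from 6210 to 7370 CPM in mutants.

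Markers of striatal cholinergic interneurons, cells of the same structure that are not projection neurons, were also lower: 5 of 5, with a median of -0.65 (-0.60 without female mutant 3) and 0 called. Their log2 fold changes ran from -0.80 to -0.07, the last close to level. In mutant females 4 of 5 were lower, and in mutant males 5 of 5. Chat, the acetylcholine-synthesising enzyme, was at 1.6, 3.81 and 5.95 CPM in wild types and 0.746, 1.80 and 4.05 CPM in mutants (-0.80, SE 0.398). Slc5a7, the choline transporter, was at -0.60 (SE 0.320) and Slc18a3, the vesicular acetylcholine transporter, at -0.65 (SE 0.364), and without female mutant 3 the 3 were at -0.73, -0.60 and -0.57. The 5 genes summed to 10.1 to 33.9 CPM in wild types and 5.51 to 24.1 CPM in mutants, highest in female wild-type 5 and lowest in male mutant 10, as for the members. Their part in the result was not tested.

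Markers of dopamine neurons, which lie in the midbrain, had log2 fold changes above 0 for 5 of 5 genes, from 0.05, close to level, to 0.73. Their median was 0.47, or 0.40 without female mutant 3, and 0 were called. By sex, 4 of 5 were lower in mutant females (median -0.70) and 5 of 5 higher in mutant males (0.80). The interaction of sex and genotype was called for 0 of them (adjusted p 0.555 to 0.570 by edgeR). Slc6a3, the dopamine transporter, ranged from 0.333 to 16.9 CPM in wild types and from 0.5 to 20.5 CPM in mutants (0.73, SE 1.04), Nr4a2, which deep cortical layers also express, was at 0.54 (SE 0.226) and Ddc at 0.35 (SE 0.337), or 0.89, 0.40 and 0.38 without female mutant 3. Slc6a3 was at 20.5 CPM in male mutant 10 and 0.486 CPM in female wild-type 5, the low and high ends for the striatal members, but at 0.589 and 0.5 CPM in female mutant 6 and male mutant 27, which were also low for them. The summed level of the 5 was 59.0 to 103 CPM in wild types and 98.7 to 152 CPM in mutants. Without female mutant 3, which had the highest sum, the mutants were at 98.7 to 113 CPM. Most of the sum was Nr4a2, with a mean of 58.1 CPM in wild types and 86.6 CPM in mutants, so it says little about the other genes of the list.

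Lists for other cells and regions had medians nearer to 0. Cortical excitatory markers had a median of -0.11 (Tle4 -0.17, Cux2 -0.26, Syt6 -0.34), interneuron markers -0.09 (Gad1 -0.34, Lamp5 -0.39, Lhx6 -0.20) and hippocampal markers 0.06 (C1ql2 0.55, Lct -0.50, Wfs1 -0.29). Of the 10 interneuron genes 5 were lower and 5 higher. Gad1 was at 385 to 456 CPM in wild types and 242 to 378 CPM in mutants. Every mutant thus lay below every wild type, as for 0.294% of all genes. The unadjusted p of Gad1 (0.00492) and Lamp5 (0.00559) by edgeR were smaller than that of any member (adjusted 0.950 for both). Thalamic markers had a median of -0.18 (Ramp3 -0.50, Slc17a6 0.58, Prkcd -0.48), with a summed level of 208 to 519 CPM in wild types and 123 to 582 CPM in mutants. Choroid plexus markers were at -0.11 (Clic6 -0.28, Folr1 -0.21, Kcnj13 -0.15) and microglial markers at -0.14 (Cx3cr1 -0.17, P2ry12 0.34, Csf1r -0.20). Of the T cell list 1 gene was tested, Lck, at 0.11 (0.20 without female mutant 3). Without that library the medians were -0.14 (cortical excitatory), -0.15 (interneurons), 0.0006 (hippocampus), -0.26 (thalamus), -0.09 (choroid plexus) and -0.08 (microglia). Some other named genes had log2 fold changes that differed by over 1.5 times between the fits with and without that library. Without it they were Slc17a6 (0.20), P2ry12 (0.09), Cux2 (-0.15), Wfs1 (-0.12), Folr1 (-0.12), Cx3cr1 (-0.09) and Csf1r (-0.06). In each of these lists 0 genes were called.

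**Figure D5:**
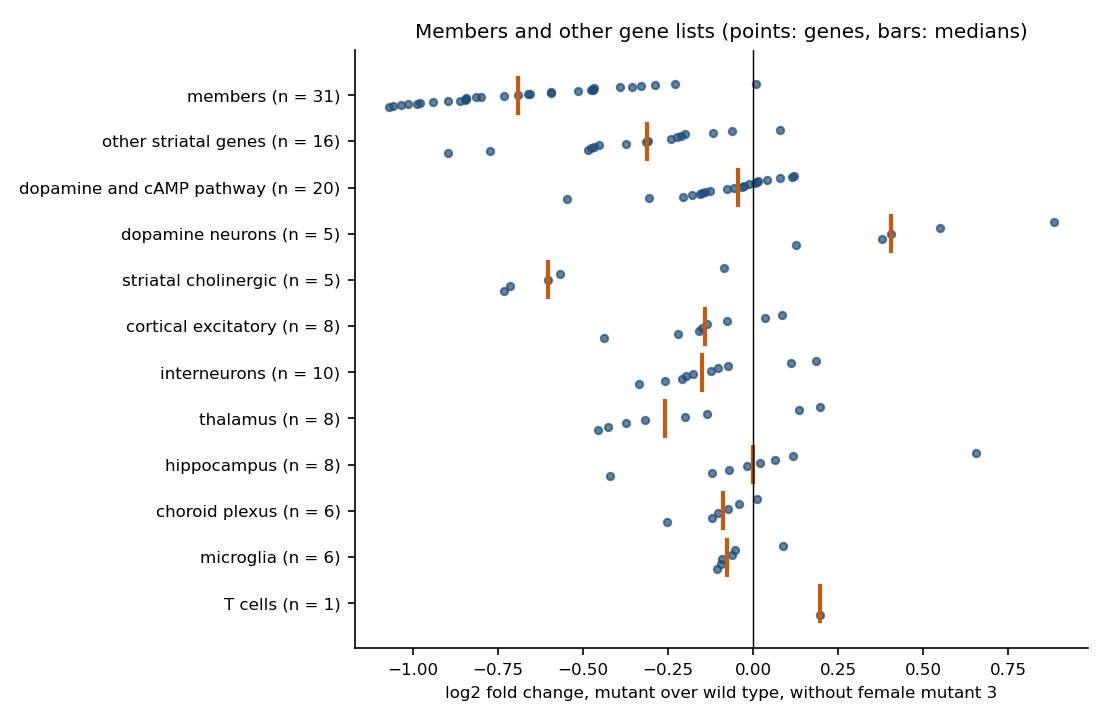
Log2 fold change of each tested gene (points) in the members and 11 other lists, mutant against wild type over both sexes without female mutant 3, with the median of each list as a bar and the number of genes tested in brackets. The members and the striatal cholinergic list have medians of -0.69 and -0.60, the dopamine neuron list 0.40 and the cortical excitatory list -0.14.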

How the data were processed

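RNA-seq libraries of cortex (Kapa mRNA HyperPrep, paired ends) were trimmed with Trimmomatic 0.36, aligned with HISAT2 2.1.0 to GRCm38.p6 and counted with HTSeq 0.11, per the submitters' processing notes, which also name Cufflinks. The deposited table holds the authors' raw counts per Ensembl gene for 12 libraries. For the counting, annotation and strand setting are not given in the sources used. Identifiers were named by GENCODE M21, which held 54165 of 54232. Genes were kept by filterByExpr, scaled by TMM and tested with edgeR 4.0.16 (quasi-likelihood, R 4.3.3), with sex as a covariate or, for each sex and the interaction, 1 mean per group, and Benjamini-Hochberg adjustment ran over the tested genes of each fit. Standard errors were derived from the F statistic. CPM were computed on TMM-scaled totals, RPKM from them and the union exon length. The script was tested on simulated data. DESeq2 1.42.0 and limma 3.58.1 were alternatives. Libraries come from separate mice, and replicate pairs differed beyond sampling noise (chi-square per degree of freedom of at least 9.47). All members are named, and from each other list the 3 tested genes of smallest p. Members and lists were chosen with earlier results of these data known. From the cortical excitatory list 1 gene is not reported here and was left out of the list's values.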

Additional observations from a re-analysis of the deposited data

Results flagged for a closer look

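Each member was examined in 2 groups of 6 libraries, the wild types and the mutants, for a library whose gap to its nearest neighbour took more than 0.625 of the whole range. This was so in 7 of 62 groups, all of them through female mutant 3 or female wild-type 5. The limit is set to be passed about 1 in 20 times by independent, normally distributed values. The members vary together, so the count cannot be set against that rate. Among the mutants, female mutant 3 stood above the rest for Gprin3 (0.795 of the range), Six3 (0.791), Cd4 (0.761), Meis2 (0.736) and Drd3 (0.653). Among the wild types, female wild-type 5 stood above the rest for Drd3 (0.892) and Slc35d3 (0.681). Drd3 was at 1.14 CPM or below in every library but female mutant 3, where 2.71 CPM came from 7 counts.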

How the results depend on the processing

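No member was called under any alternative or with any library left out, and 29 to 30 of the members tested were lower in each fit over both sexes. Their median log2 fold change was -0.76 (without female wild-type 2) to -0.46 (without female wild-type 5) with 1 library left out and -0.71 to -0.42 under the other alternatives, against -0.63, and library totals without TMM moved the median of all genes to -0.08. Over both sexes, genes called were 1 in the analysis as given, 29 (9 higher) with DESeq2, 22 (6 higher) with quality-weighted limma-voom, 0 on library totals, 53 (20 higher) with DESeq2 without female mutant 3, and 0 to 2 with 1 library left out. In females they were 4 with weights, 2 with no filter and 15 with DESeq2 without female mutant 3, against 0. In males they were 4 with DESeq2, 1 with weights, 16 with DESeq2 without female mutant 3 and 0 to 1 with 1 library left out, and for the interaction 4, 1 with weights, 1 with no filter, 4 and 0 to 1. The log2 ratio of Drd1 to Drd2 ranged from -0.030 to 0.16 with 1 library left out (-0.01 without male wild-type 8, -0.030 without male mutant 27). That of Tac1 to Penk ranged from -0.063 to 0.19 (-0.0006 without female wild-type 5, -0.063 without female mutant 1, -0.02 without male wild-type 8, -0.002 without male mutant 10), and that of Ppp1r1b to Arpp21 from -0.72 to -0.51, passing without female mutant 1 (-0.72, exact permutation p adjusted 0.0450). Ppp1r1b and Arpp21 gave r 0.408 without the 2 farthest libraries, and Ppp1r1b and Meis2 r 0.814 without female mutant 3 and 0.619 with group means removed. Signs reversed for Lck (-0.045 with limma-voom, and -0.11 to 0.22 with 1 library left out), Gpr149 (0.0093 with weights) and Six3 (0.074 without male wild-type 8, the highest of -0.66 to 0.074 with 1 library left out), and Gad1 passed with DESeq2 without female mutant 3 (-0.26, adjusted p 0.0307). The cause was not tested. No paired analysis was possible because no replicate number occurs in more than 1 group. Depth limits Drd3, Gpr6, Isl1, Slc35d3, Ido1 and Serpina9, with 6 to 10 counts each in female mutant 3.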
